A study of Mus musculus with 32 samples.

Results

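The 39 protein-coding genes of the mouse Hox clusters were followed through 32 libraries of a β-catenin-inducible embryonic stem cell (ESC) line. Members were taken by symbol, Hoxa, Hoxb, Hoxc or Hoxd followed by a paralog number, and matched by Ensembl identifier to 39 of the 31053 genes in the count tables. They comprised 11 Hoxa genes on chromosome 6 (52155590 to 52260880), 10 Hoxb genes on chromosome 11 (96194316 to 96368256), 9 Hoxc genes on chromosome 15 (102921103 to 103036852) and 9 Hoxd genes on chromosome 2 (74668310 to 74765142), all in GRCm38. By paralog number, 8 were anterior (paralogs 1 to 3), 15 central (4 to 8) and 16 posterior (9 to 13).

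Hox genes encode homeodomain transcription factors that give cells their position along the head-to-tail axis of the embryo. Within a cluster their order on the chromosome follows the order in which they are switched on, so that genes of low paralog number come on earlier and more anteriorly than genes of high number. In ESCs the clusters are held down by Polycomb proteins, and retinoic acid, Wnt and FGF signals through CDX factors are known to open them during gastrulation and in the early neural plate.

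The line, C1, lacked endogenous β-catenin in all groups, and carried an rtTA driven by the EF1a promoter and a doxycycline (dox)-responsive fusion of a destabilizing domain, mCherry and constitutively active β-catenin S33Y, whose protein trimethoprim (TMP) stabilizes. Before sorting, cells were passaged in 2i/L, though the labels describe serum with LIF. They were given TMP at 10 µM for 48 h, alone for C1 or with dox at 100 ng/mL for C1M (middle mCherry) and C1H (high mCherry), and these 3 groups were collected at day 0. The other 5 groups were collected at day 4 in NDiff227 without 2i/L: C1T from C1 cells kept in TMP, C1MV and C1HV from C1M and C1H cells moved to DMSO (inducers withdrawn), and C1MDT and C1HDT from the same sorted fractions kept in dox and TMP. Each group held 4 biological replicates, all of this single line.

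The 3′ ends of transcripts were sequenced (QuantSeq), without molecular identifiers, so that counts were of reads near 1 end of a transcript and were not divided by its length. Levels are given as CPM, the count relative to the library's total, after scaling with edgeR's TMM factors. Libraries held 1366951 to 3648787 counts on genes, and 3 counts, used here as the detection floor, stood for 0.837 to 2.14 CPM on this scale. The floor covers counting error only. Ctnnb1, which the fusion carries, stood at 7.81 ± 2.63 CPM (mean ± SD, n = 4, as throughout) in C1, 12.2 ± 3.84 in C1M and 41.1 ± 5.70 in C1H. The 10 naive pluripotency markers summed to 7443 to 9212 CPM in the libraries of day 0 and to 1381 to 3398 at day 4, while the 11 fibroblast or feeder markers summed to 10.5 to 31.5 CPM over all libraries, with 6 or 7 of them at the floor in each group. Reads outside annotated genes made up 19.55 to 23.06% of unique reads at day 0, 14.38 to 14.81% in C1T and 10.06 to 15.65% in the other day 4 groups. Their part in the differences between days given here was not tested.

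Promoter windows are shown for the 6 genes on which the comparisons turned most and for which RefSeq gave one. These were Hoxb1, Hoxa5 and Hoxa7, lower in every induced day 4 group than in C1T, Hoxb8, higher in all 4 of them, and Hoxa9 and Hoxd11, higher in C1M and C1H than in C1. Each window covers 250 bases before to 50 bases after the RefSeq start (GRCm38.p6), read 5′ to 3′ on the gene's own strand. Capitals mark matches, on either strand, to CTTTGA or CTTTGT, which are forms of the TCF/LEF core that differ in their last base, to AGGTCA (bound by retinoid receptors) or to TTTATG (a CDX core). The windows lie at chr11:96365508-96365807 (plus strand, Hoxb1), chr6:52204538-52204837 (minus, Hoxa5), chr6:52218524-52218823 (minus, Hoxa7), chr11:96281655-96281954 (plus, Hoxb8), chr6:52227321-52227620 (minus, Hoxa9) and chr2:74679308-74679607 (plus, Hoxd11).
Hoxb1: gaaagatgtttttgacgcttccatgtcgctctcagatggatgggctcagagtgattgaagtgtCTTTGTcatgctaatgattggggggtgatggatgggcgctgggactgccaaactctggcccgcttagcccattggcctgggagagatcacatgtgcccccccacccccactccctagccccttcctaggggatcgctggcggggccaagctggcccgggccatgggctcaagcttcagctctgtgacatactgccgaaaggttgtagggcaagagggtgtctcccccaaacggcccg
Hoxa5: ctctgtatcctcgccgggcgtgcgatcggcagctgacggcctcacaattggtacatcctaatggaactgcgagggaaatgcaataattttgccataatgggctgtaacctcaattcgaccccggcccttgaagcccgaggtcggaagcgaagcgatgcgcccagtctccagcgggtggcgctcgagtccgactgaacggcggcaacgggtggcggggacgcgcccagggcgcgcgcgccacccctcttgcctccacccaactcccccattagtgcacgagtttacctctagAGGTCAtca
Hoxa7: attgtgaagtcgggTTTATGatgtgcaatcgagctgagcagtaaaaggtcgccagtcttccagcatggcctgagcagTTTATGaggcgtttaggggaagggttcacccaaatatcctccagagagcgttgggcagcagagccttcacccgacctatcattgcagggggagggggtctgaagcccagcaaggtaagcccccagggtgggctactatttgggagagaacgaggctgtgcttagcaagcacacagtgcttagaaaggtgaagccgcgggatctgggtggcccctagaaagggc
Hoxb8: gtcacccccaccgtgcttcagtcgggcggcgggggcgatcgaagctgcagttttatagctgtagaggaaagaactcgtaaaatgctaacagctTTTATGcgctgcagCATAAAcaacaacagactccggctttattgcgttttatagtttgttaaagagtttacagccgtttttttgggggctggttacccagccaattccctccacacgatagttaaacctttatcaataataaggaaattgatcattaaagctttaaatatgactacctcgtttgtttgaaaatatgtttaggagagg
Hoxa9: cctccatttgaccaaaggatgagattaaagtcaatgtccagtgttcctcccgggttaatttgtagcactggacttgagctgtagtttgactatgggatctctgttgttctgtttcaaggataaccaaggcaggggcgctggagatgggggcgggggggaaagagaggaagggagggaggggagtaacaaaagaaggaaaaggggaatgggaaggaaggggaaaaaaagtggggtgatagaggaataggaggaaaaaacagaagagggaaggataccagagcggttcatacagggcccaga
Hoxd11: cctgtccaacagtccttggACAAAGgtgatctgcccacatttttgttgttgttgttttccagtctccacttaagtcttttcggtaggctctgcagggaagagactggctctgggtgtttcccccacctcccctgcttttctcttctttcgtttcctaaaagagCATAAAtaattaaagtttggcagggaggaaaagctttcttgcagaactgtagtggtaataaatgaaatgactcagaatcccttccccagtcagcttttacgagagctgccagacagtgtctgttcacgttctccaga
The starts used by RefSeq lay 3281 and 3719 bases inside the longer GENCODE models of Hoxa7 and Hoxa9, and within 6 bases of the GENCODE start for the other genes shown.

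Hoxb1 held 1 match to CTTTGT, beginning 187 bases before the start, and Hoxd11 held 1 on the opposite strand, beginning 231 bases before it. AGGTCA was found in the Hoxa5 window alone among these 6, at position 42 after the start. Hoxa7 and Hoxb8 held 2 matches each to TTTATG and Hoxd11 held 1, and the Hoxa9 window held none of the 4 motifs. RefSeq gave 24 windows for 22 of the 39 members and none for the other 17. CTTTGA was present in 16.7% of the 24 windows and 16% of all 32851 promoters, CTTTGT in 25% and 18.7%, AGGTCA in 29.2% and 16.3%, and TTTATG in 20.8% and 11.9%. The GC content of the windows shown ran from 42.3% (Hoxb8) to 61.7% (Hoxa5), against a median of 52.7% over all promoters. These matches describe letters and not binding.

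Nearly all Hox genes were counted, most of them at low levels. Of the 39 members, 38 had at least 1 count, 34 exceeded 3 counts in some library, 27 reached 10 counts and 7 were counted in all 32 libraries. Hoxd4 had no count, which at the floor allows up to 0.837 to 2.14 CPM depending on the library, and Hoxd1 and Hoxd3 had 1 count each, Hoxa6 3 and Hoxb6 6 over all libraries. The filter for testing (at least 1 CPM in at least 4 libraries) kept 34 members, that is 10 Hoxa, 9 Hoxb, 9 Hoxc and 6 Hoxd genes, or 6 of 8 anterior, 12 of 15 central and 16 of 16 posterior members. Applied to the libraries of each day alone, it would keep 20 members on both days, 9 at day 0 only and 4 at day 4 only, and 1 only when the days are pooled. Among the 9, 7 were posterior, and among the 4, 3 were anterior.

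**Figure D1:**
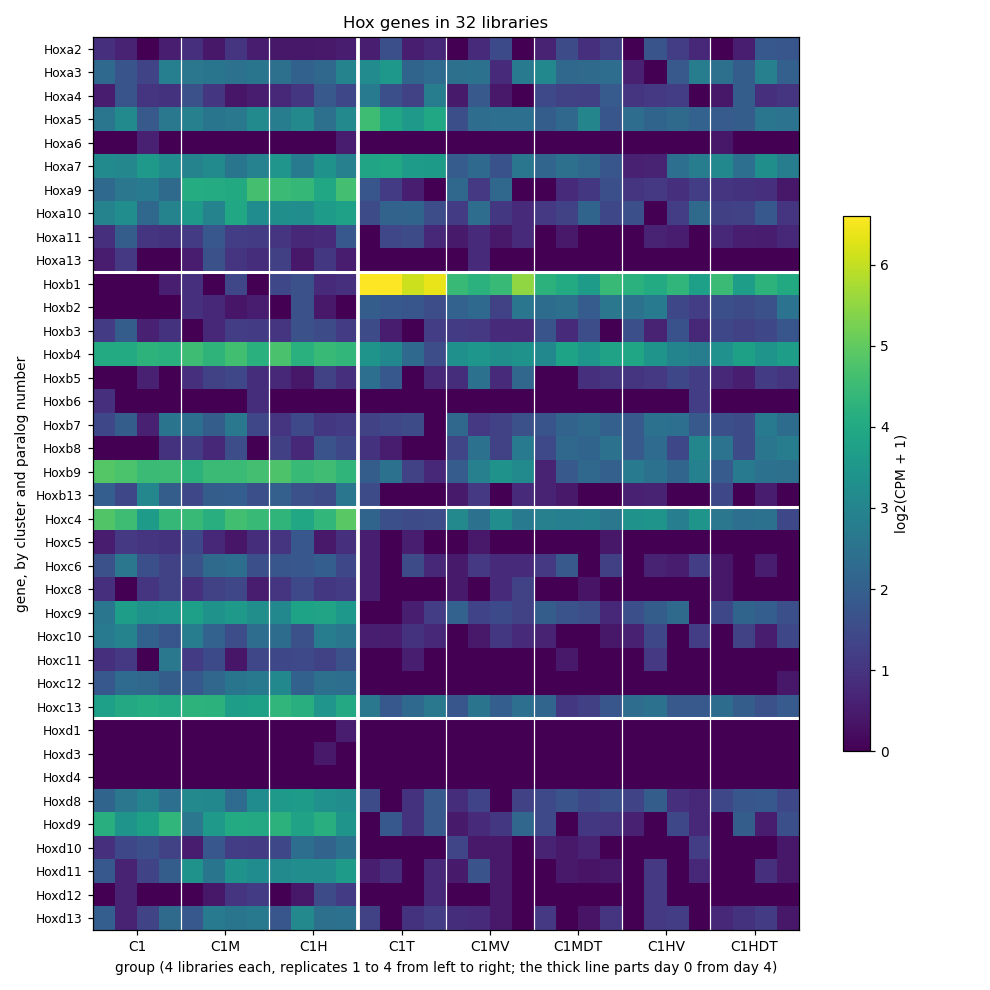
Level of 38 of the Hox genes (rows, ordered by cluster and paralog number) in each of the 32 libraries (columns, 4 a group), as log2(CPM + 1). Hoxb1 is brightest in C1T, and most posterior genes of clusters c and d are darker at day 4 than at day 0.

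Summed over the members, Hox transcripts came to 171 ± 11 CPM in C1, 206 ± 9.2 in C1M and 223 ± 11.2 in C1H, and to 172 ± 32 in C1T against group means of 83.1 to 100.5 in the 4 induced day 4 groups. The make-up of these sums differed between days. Posterior genes held 54.99% ± 1.43 of the sum in C1, 55.7% ± 2.53 in C1M and 57.1% ± 1.08 in C1H, but 9.53% ± 1.20 in C1T and 14.8 to 21.7% in the induced day 4 groups. Anterior genes held 7.56 to 9.19% at day 0, 64.1% ± 2.38 in C1T and 38.3 to 44.3% in the induced groups. Hoxb1 alone made much of this: without it the C1T sum was 85.8 ± 20.3 CPM, and the induced groups stood at 66.7 to 74.5. By cluster, Hoxa genes stood at sums of 39.4 to 64.8 CPM at day 0, 57.2 ± 12.4 in C1T and 23.2 to 28.2 in the induced groups. Hoxc genes went from sums of 57.7 to 62.5 CPM at day 0 to 8.83 to 16.1 at day 4 and Hoxd genes from 25.1 to 42.5 to 3.86 to 4.59, while Hoxb genes stood at 49.1 to 53.2 at day 0, 101 ± 21 in C1T and 42.4 to 54.5 in the induced groups. The sums are given as a description, with no test. In these bulk samples fewer cells with a transcript and less of it per cell cannot be told apart.

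**Figure D2:**
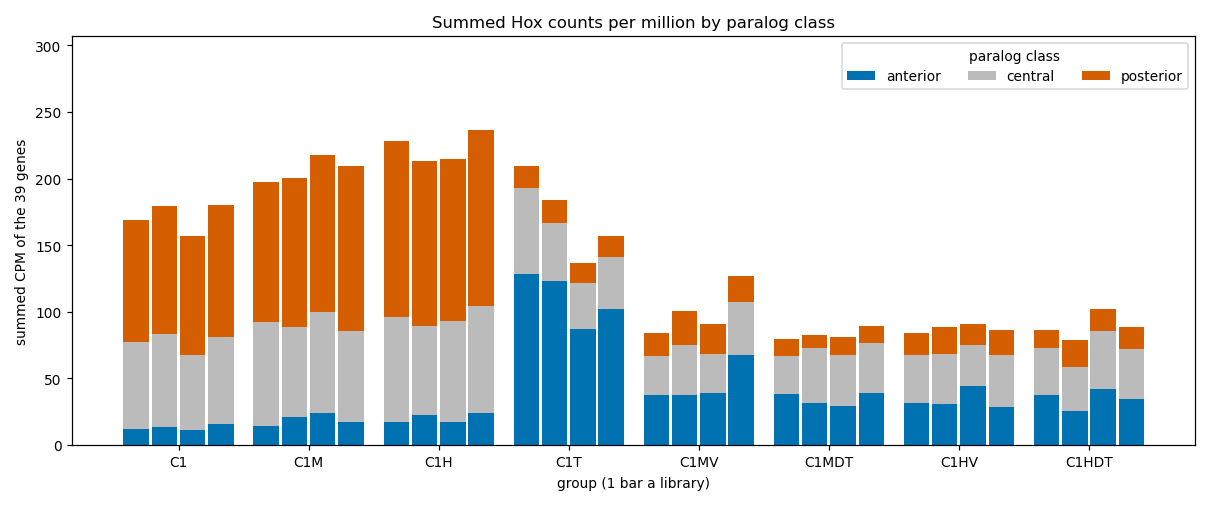
Summed CPM of the 39 Hox genes in each library (1 bar each, 4 a group), stacked by paralog class. Posterior genes (orange) fill over 50% of each day 0 bar and anterior genes (blue) over 50% of each C1T bar.

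The first comparison asked whether 48 h of β-catenin induction altered Hox transcripts in pluripotent cells. Posterior Hoxa9 and Hoxd11 were higher in both sorted fractions, by about 2 on the log2 scale, and no member was called lower. In C1M vs C1, 3 of the 34 tested members were called at an adjusted p under 0.05 (edgeR's quasi-likelihood test), all higher, where 26.3% of all 15280 genes were called and 14.3% called higher. In C1H vs C1 the count was 5, all higher, against 25.9% and 13.8%, so that the share of members called was below that of all genes in both. The median log2 fold change of the 34 was 0.33 in C1M vs C1 and 0.36 in C1H vs C1, where the medians over all genes were 0.06 and 0.04. Both comparisons share the C1 libraries. C1M and C1H differ from C1 by dox and by selection on mCherry as well as by the fusion protein, and these cannot be told apart.

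Hoxa9, known for its role in blood stem cells and leukaemia, stood at 3.78, 5.09, 5.71 and 3.83 CPM in C1, at 16.1, 15.6, 15 and 24.3 in C1M and at 21.8, 20.2, 14.6 and 23.9 in C1H. Each induced library was above each C1 library. The log2 fold changes were 1.95 (SE 0.30, edgeR adjusted p = 6.9e-08) for C1M and 2.13 (SE 0.30, adjusted p = 2.0e-09) for C1H. Hoxd11, which patterns the forearm and kidney together with Hoxa11, stood at 2.52, 0.566, 1.56 and 2.88 CPM in C1, at 9.33, 4.96, 9.45 and 8.25 in C1M and at 7.83, 8.36, 8.42 and 11.3 in C1H. Its groups did not overlap either, and the log2 fold changes were 2.01 (SE 0.45, adjusted p = 0.00018) and 2.17 (SE 0.44, adjusted p = 3.6e-05). Both genes kept these calls under each alternative that tested them. Hoxd8, the 3′ neighbour of Hoxd9 in its cluster, stood at 3.36, 5.09, 6.74 and 4.31 CPM in C1 and 10.9, 11.5, 9.15 and 8.4 in C1H. It was higher by 1.05 on the log2 scale (SE 0.34, adjusted p = 0.013, or 0.078 without C1 replicate 1).

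The remaining calls of day 0 rested on few reads. Hoxb1, which specifies the fourth rhombomere of the hindbrain, had 1 count in the 4 C1 libraries together and stood at 1.7, 2.09, 0.732 and 0.84 CPM in C1H (adjusted p = 0.032). Hoxb8, a regulator of myeloid cells and microglia, stood at 0, 0, 0 and 0.958 CPM in C1 and 1.36, 0.697, 2.2 and 1.68 in C1H (adjusted p = 0.047), with overlap between the groups, and Hoxb5, a gene of the vagal neural crest and lung, at 0, 0, 0.519 and 0 in C1 and 0.848, 1.42, 1.63 and 0.825 in C1M (adjusted p = 0.049). C1 was at the floor for all 3, and the means of the induced groups did not exceed what that floor allows, so no fold is given. Under the alternatives the Hoxb1 call was lost without C1 replicates 1, 2 or 3 or C1H replicates 1 or 2 (adjusted p up to 0.11), the Hoxb8 call without C1 replicates 1, 2 or 3 or C1H replicates 1, 3 or 4, in DESeq2 and with no filter on low counts (up to 0.16), and the Hoxb5 call without C1 replicates 1, 2 or 4 or C1M replicates 1, 2 or 3, in DESeq2, with no filter and with the replicate block (up to 0.14). The count for C1H vs C1 was 2 to 5 with 1 library left out, being 2 without C1 replicate 1 and 3 without C1 replicates 2 or 3. The posterior neural and hindbrain markers, 7 genes with 4 to 6 at the floor in each group of both days, summed to 3.63 to 6.22 CPM in C1, 7.44 to 14 in C1M and 10.5 to 13 in C1H, with Egr2, Neurog2 and Olig2 at 0 in C1. Other marker sums were lower in C1M and C1H than in every C1 library. The 11 endoderm genes (3 or 4 at the floor, Afp and Sox7 at 0 in C1) summed to 703 to 916 CPM in C1, 455 to 602 in C1M and 420 to 639 in C1H. The 10 primitive streak and mesoderm genes (4 to 6 at the floor, Msgn1 at 0 in all 3 groups and T in C1) summed to 56.02 to 61.7 CPM in C1, 37.8 to 46.6 in C1M and 42.1 to 53.6 in C1H. Naive pluripotency genes, none at the floor, went from 8674 to 9212 CPM in C1 to 7554 to 8022 in C1M and 7443 to 7776 in C1H, and the 5 general pluripotency genes, also all above it, from 1215 to 1273 to 1061 to 1160 and 1029.5 to 1087. In C1H alone the 5 neural crest genes (0 to 2 at the floor) lay below C1, at 30.8 to 41.2 against 42.0 to 49.5 CPM, and the 11 fibroblast or feeder genes (6 or 7 at the floor) above it, at 23.9 to 31.5 against 17.6 to 23.2. The part of these lists in the day 0 calls was not tested.

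C1H vs C1M compared the fractions sorted for high and middle mCherry. No member was called by edgeR or DESeq2 (2 had an unadjusted p under 0.05 in edgeR), while 1.77% of all genes were called (0.713% up and 1.06% down). Hoxa9 differed between C1H and C1M by means of 20.1 ± 3.97 and 17.8 ± 4.41 CPM, and Hoxd11 by 8.99 ± 1.59 and 8.00 ± 2.09, within the spread of the libraries.

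**Figure D3:**
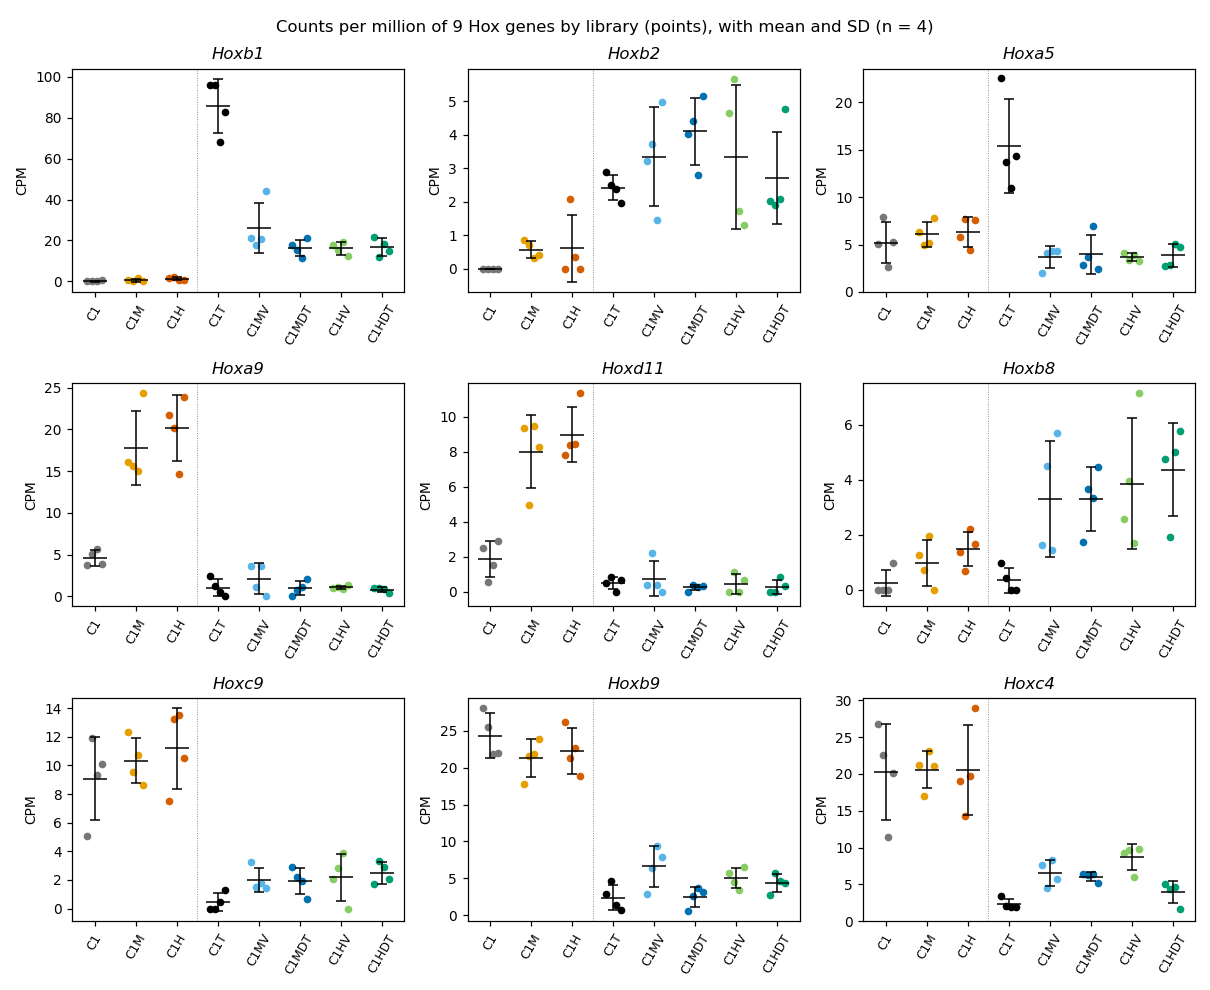
CPM of 9 Hox genes in each library (points), with the mean and SD of each group (n = 4). Hoxb1 is highest in C1T, Hoxa9 and Hoxd11 in C1M and C1H, and Hoxb8 is higher in the induced day 4 groups than in C1T.

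Day 4 was then compared with the day 0 cells from which each culture had been seeded. Posterior genes fell, Hoxb1 and Hoxb2 rose, and central genes went either way. In C1T vs C1, 6 members rose and 16 fell, or 22 of 34, where 49.3% of all genes were called (24.4% up and 24.9% down). In C1MV vs C1M 3 rose and 17 fell (background 45.9%, 22% up and 23.9% down), in C1MDT vs C1M 3 and 23 (52.4%, 24.5% and 27.9%), in C1HV vs C1H 4 and 21 (47%, 22% and 25.1%) and in C1HDT vs C1H 4 and 21 (55.7%, 26.3% and 29.4%). The median log2 fold change of the members was -1.54, -1.66, -2.02, -2.09 and -2.27 in this order, and that of all genes lay between -0.06 and 0.01. C1MV and C1MDT share the C1M libraries, and C1HV and C1HDT the C1H libraries. Members that passed the filter through day 0 alone had little room other than to be lower at day 4, so these counts describe the members and support nothing more. Marker sums also differed from C1 to C1T. Mean sums rose for early post-implantation epiblast (113 to 1428 CPM), anterior neural (47.8 to 134) and neuron genes (143 to 340). They fell for trophoblast (221 to 68.0), primitive streak and mesoderm (58.2 to 27.9) and neural crest genes (45.6 to 30.6). Their part in these changes was not tested.

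Of the 20 members that would pass the filter on each day alone, 3, 1, 1, 2 and 2 rose and 11, 13, 14, 13 and 12 fell in the order given above. All 16 posterior members fell in at least 1 of the 5 comparisons and none was called higher, but 7 of them passed the filter at day 0 only and Hoxd12 only with the days pooled. Of the 8 that passed on both days, Hoxa9, Hoxa10, Hoxb9, Hoxc9, Hoxc10, Hoxc13 and Hoxd9 fell in all 5 and Hoxd13 in 4. Among anterior members Hoxb1 and Hoxb2, which passed at day 4 only, rose in all 5, and Hoxa2, Hoxa3 and Hoxb3 were called in none. The group means of these 3 ran from 0.369 to 1.34 CPM for Hoxa2, from 2.24 to 6.45 for Hoxa3 and from 0.812 to 1.80 for Hoxb3. Of the 12 central members, Hoxb4, Hoxc4, Hoxc6 and Hoxd8 fell in all 5, while Hoxa4, Hoxa5, Hoxb5, Hoxb7 and Hoxb8 rose in some and fell in none. In each single comparison 22 to 26.3% of all genes were called higher and 23.9 to 29.4% lower. The share of all genes called over several of the 5 was not computed, so these counts describe the members only.

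**Figure D4:**
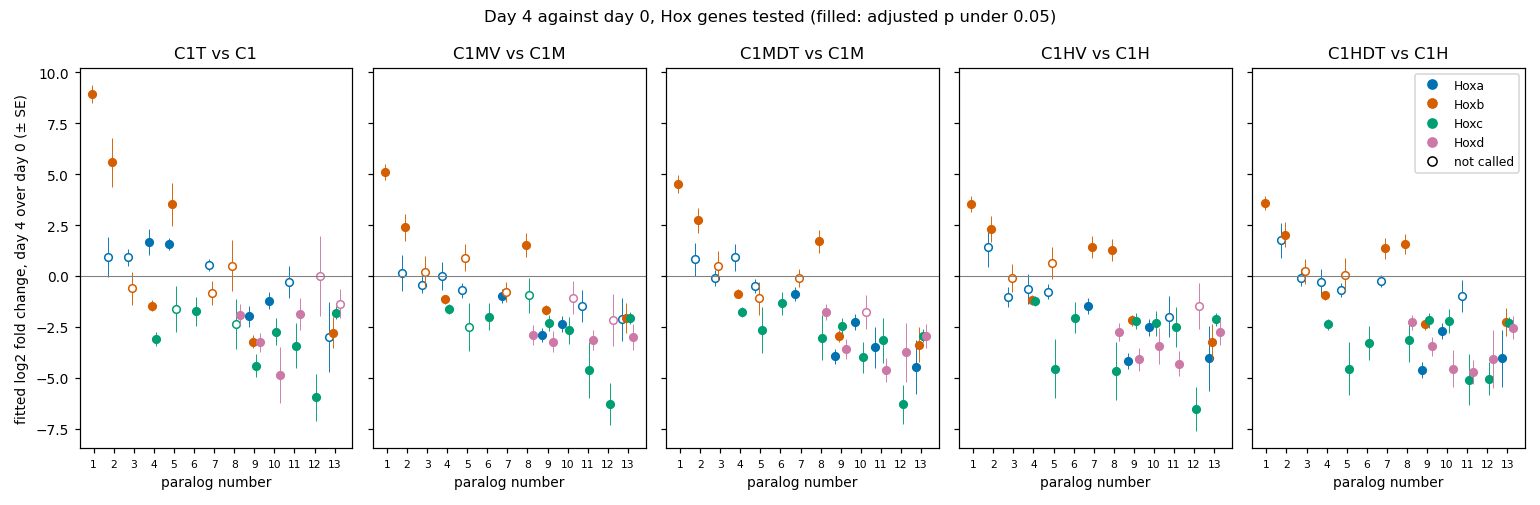
Fitted log2 fold change (± SE) of tested Hox genes at day 4 over the day 0 group of origin, against paralog number, coloured by cluster and filled where called. Posterior genes lie below 0 wherever they are called, and points far below -4 belong to genes at or near 0 at day 4, whose fitted size depends on the prior count.

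Hoxb1 was all but absent at day 0 and well above the floor in every day 4 library. Its levels were 0, 0, 0 and 0.479 CPM in C1 and 95.9, 96.1, 68.1 and 82.9 in C1T, at least 57.7-fold higher (adjusted p = 8.3e-29). In the induced cultures it stood at 21.4, 17.6, 20.7 and 44.2 CPM in C1MV and 17.9, 15.5, 11.4 and 21 in C1MDT, against 0.848, 0, 1.63 and 0 in C1M, and the log2 fold changes were 5.11 (SE 0.40) and 4.52 (SE 0.43). C1HV and C1HDT reached 17.6, 15.3, 19.4 and 12.4 and 21.8, 11.9, 18.4 and 15 CPM, log2 fold changes over C1H of 3.53 (SE 0.38) and 3.58 (SE 0.36). Each day 4 library was above each day 0 library. Hoxb2, a neighbour that Hoxb1 is known to activate in the hindbrain, had no count in C1 and stood at 2.88, 2.5, 2.38 and 1.96 CPM in C1T, at least 1.63-fold higher (adjusted p = 4.0e-05). In the other day 4 groups its mean ran from 2.70 ± 1.38 in C1HDT to 4.10 ± 0.990 in C1MDT.

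A further 3 genes of middle number rose in C1T vs C1 and did not pass the test as a rise in the other comparisons. The difference itself, tested as an interaction, was called in all 4 induced cultures for Hoxa5, for C1MDT in Hoxb5 and for none in Hoxa4. Hoxa5, needed for lung and cervical skeleton, stood at 5.03, 7.92, 2.59 and 5.27 CPM in C1 and at 22.5, 13.7, 11 and 14.4 in C1T, a log2 fold change of 1.57 (SE 0.31, adjusted p = 5.6e-06). Hoxa4 rose from 1.17 ± 0.779 to 3.78 ± 2.36 CPM (adjusted p = 0.023, lost without C1 replicate 1 or C1T replicates 1 or 4, up to 0.11), and Hoxb5, at the floor in C1, reached 4.32, 2.5, 0 and 0.652 in C1T, at least 1.25-fold higher (adjusted p = 0.0039, or 0.057 without C1T replicate 1). Hoxb8 rose in the 4 comparisons of induced cultures, to 3.31 to 4.37 CPM from 0.984 ± 0.83 in C1M and 1.48 ± 0.627 in C1H, with adjusted p from 0.0050 (C1HDT) to 0.046 (C1HV), and Hoxb7 rose in C1HV and C1HDT, from 1.28 ± 0.323 in C1H to 3.51 ± 1.06 and 3.37 ± 1.70. For Hoxb8 the call in C1HV was lost in 9 alternatives (up to 0.245, among them without C1H replicates 1, 2 or 4 or C1HV replicates 2 or 4) and in C1MV without C1M replicates 2 or 4 or C1MV replicates 2 or 4 (up to 0.11). For Hoxb7 it was lost without C1HV replicates 2 or 3 or C1HDT replicates 3 or 4 (up to 0.11), and for Hoxb2 in C1HDT without C1HDT replicate 4 (0.053).

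The fall of the posterior genes was seen in those with many reads. Those that passed the filter at day 0 only had little room other than to be lower. Hoxb9 (chr11:96271457-96276595), a gene of thoracic identity, stood at 28.1, 25.5, 21.8 and 22 CPM in C1 and at 2.88, 4.58, 1.43 and 0.652 in C1T, a log2 fold change of -3.22 (SE 0.31, adjusted p = 2.0e-18), and fell by 1.69 to 2.95 on the log2 scale in the induced comparisons. Hoxc13, needed for hair and nails, went from 12.2, 14.7, 16.1 and 14.9 CPM in C1 to 5.28, 2.5, 3.81 and 5.22 in C1T, a log2 fold change of -1.80 (SE 0.31, adjusted p = 2.2e-07). Hoxd9 went from 16.8, 9.62, 12.5 and 19.2 CPM to 0, 2.5, 0.953 and 2.61 (-3.27, SE 0.49, adjusted p = 6.45e-08). In all 3 genes no C1T library reached a C1 library.

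Hoxa9 and Hoxd11, higher in C1M and C1H than in C1 at day 0, were not high at day 4. Hoxa9 fell to 3.63, 1.12, 3.63 and 0 CPM in C1MV and to 0, 0.737, 1.12 and 2.06 in C1MDT, and to the floor in C1HV and C1HDT, at least 12.4-fold and 17.0-fold lower than in C1H. Hoxd11 was at the floor in C1MDT, C1HV and C1HDT, at least 6.80-fold, 5.54-fold and 7.60-fold lower than at day 0, and stood at 0.403, 2.25, 0.363 and 0 CPM in C1MV. In C1T vs C1, where the start was lower, Hoxa9 fell by 1.99 (SE 0.53) on the log2 scale and the Hoxd11 call (adjusted p = 0.035) was lost without C1 replicates 1 or 4 or C1T replicates 1 or 3 (up to 0.12).

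Of the 9 Hoxc genes 7, 7, 9, 9 and 9 fell in the order given above, where 24.9%, 23.9%, 27.9%, 25.1% and 29.4% of all genes were called lower. Hoxc5, Hoxc8, Hoxc11 and Hoxc12 passed the filter at day 0 only and had little room other than to be lower, so the counts describe these genes and support nothing more. Hoxc4 (chr15:103018934-103036852) went from 26.8, 22.6, 11.4 and 20.1 CPM in C1 to 3.36, 2.08, 1.91 and 1.96 in C1T (-3.10, SE 0.32, adjusted p = 3.5e-16), and Hoxc9 (chr15:102976439-102985099), which sets thoracic motor neuron identity, from 5.03, 11.9, 9.34 and 10.1 to 0, 0, 0.476 and 1.3, at least 5.98-fold lower (adjusted p = 3.5e-11). Hoxb4 went from 15.5, 15.3, 18.2 and 17.3 CPM in C1 to 9.59, 7.49, 3.81 and 1.96 in C1T (-1.46, SE 0.27, adjusted p = 1.1e-06). Hoxc12 was counted in every day 0 library, at 2.52 to 7.49 CPM, and in 1 of 20 at day 4, with 1 count. It was at least 2.14-fold lower in C1T than in C1 and at least 4.06-fold lower in C1HDT than in C1H. Hoxc10, the lumbar paralog, fell in all 5 comparisons, from 3.80 to 4.44 CPM at day 0 to 0.230 to 0.888.

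The other members that fell were Hoxa10, Hoxb13 and Hoxc11 in all 5 comparisons, Hoxa7 in 3, Hoxa13, Hoxc5, Hoxc8 and Hoxd10 in 3, Hoxd13, the digit gene, in 4, Hoxd12 in 2 and Hoxa11 in 1. Calls at low counts rested on single libraries in part. Hoxc6 was lost in 4 alternatives of C1T vs C1 (without C1 replicate 2 or C1T replicates 1, 2 or 4, up to 0.20), in 7 of C1MDT vs C1M (among them C1M replicates 2 or 3 and C1MDT replicates 1, 3 or 4 left out, up to 0.248) and in 2 of C1HV vs C1H (without C1HV replicates 1 or 3, up to 0.091), Hoxc11 without C1 replicate 4 in C1T vs C1 (0.24) and in 5 alternatives of C1HV vs C1H (DESeq2 and without C1H replicate 4 or C1HV replicates 1, 3 or 4, up to 0.11), and Hoxc5 in 9 of C1MDT vs C1M (among them C1M replicates 1, 2 or 4 and C1MDT replicates 1, 2 or 3 left out, up to 0.15). The calls of Hoxa7 were lost without C1M replicates 1 or 2, C1MV replicates 1 or 3 or C1MDT replicate 4 (up to 0.11), that of Hoxb13 in C1MV without C1MV replicate 3 (0.089), those of Hoxd12 in DESeq2 (up to 0.11, also without C1M or C1MDT replicate 3) and that of Hoxa13 in C1HV in DESeq2 and without C1HV replicates 1, 2 or 3 (up to 0.10).

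At day 4 the induced cultures were compared with C1T, to describe how Hox genes differed during the exit from pluripotency. All 4 induced groups differ from C1T by dox and by selection on mCherry as well as by the fusion protein. C1MV and C1HV also differ by the withdrawal of TMP, in which C1T was kept. These cannot be told apart. Hoxb1, Hoxa5 and Hoxa7 were lower and Hoxb8 and Hoxc9 higher in all 4 induced groups. In C1MV vs C1T 4 members were higher and 4 lower (30.2% of all genes were called, 15.3% up and 14.9% down), in C1MDT vs C1T 4 and 6 (33.4%, 16.9% and 16.5%), in C1HV vs C1T 3 and 5 (28%, 13.7% and 14.3%) and in C1HDT vs C1T 3 and 5 (33.5%, 17.4% and 16.1%). With 8 to 10 of 34 called, the members' share lay near the background. All 4 comparisons share the C1T libraries, so a call repeated over them is not independent. The median log2 fold change of the members was -0.08, -0.33, -0.15 and -0.23. Some marker sums also differed between these groups. The 10 naive pluripotency genes summed to 1620 ± 166 CPM in C1T against 3065 ± 233 and 2824 ± 63.7 for C1MV and C1HV, and 1672 ± 132 and 1665 ± 101 for C1MDT and C1HDT. The 5 early post-implantation epiblast genes summed to 1428 ± 129 CPM in C1T against 693 ± 41.0 and 744 ± 21.7 for C1MV and C1HV, and 1147 ± 65.3 and 1149 ± 54.9 for C1MDT and C1HDT. The 5 neural crest genes, of which 1 or 2 were at the floor in the induced groups, summed to 30.6 ± 3.77 CPM in C1T and 12.8 to 16.1 in the induced groups. The 8 anterior neural genes, 2 or 3 of them at the floor in each group, summed to 134 ± 10.9 CPM in C1T, to 114 ± 8.59 and 127 ± 10.0 without the inducers (C1MV, C1HV) and to 202 ± 4.19 and 183 ± 15.3 with them (C1MDT, C1HDT). Neuron genes (6, of which 1 or 2 were at the floor) stood at 340 ± 37.7 CPM in C1T, 357 ± 28.4 and 322 ± 20.7 without and 259 ± 11.2 and 275 ± 15.2 with the inducers, and trophoblast genes (8, of which 2 to 4 were at the floor) at 68.0 ± 9.08, 126 ± 16.6 and 121 ± 14.0, and 83.4 ± 5.36 and 81.6 ± 9.33. General pluripotency genes (5) summed to 1174.5 ± 69.9 CPM in C1T and 738 to 956 in the induced groups. Their part in the differences from C1T was not tested.

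For Hoxb1 no induced library reached a C1T library, and the log2 fold changes over C1T were -1.82 (SE 0.19) in C1MV, -2.41 (SE 0.19) in C1MDT, -2.38 (SE 0.20) in C1HV and -2.34 (SE 0.19) in C1HDT, with adjusted p of at most 5.4e-13. C1MV replicate 4, at 44.2 CPM, stood apart from the other 3 libraries of its group. Hoxa5 stood at 2.02, 4.12, 4.36 and 4.28 CPM in C1MV, 2.88, 3.69, 6.98 and 2.41 in C1MDT, 4.13, 3.41, 3.87 and 3.25 in C1HV and 2.72, 2.87, 5.03 and 4.76 in C1HDT, all below the 4 C1T libraries. Its log2 fold changes were -2.06, -1.86, -2.04 and -1.98 (SE 0.30 to 0.34, adjusted p at most 1.6e-07).

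Hoxa7, a gene of thoracic patterning, stood at 13.4, 14.2, 11.4 and 11.1 CPM in C1T and at 2.82, 3.74, 2.18 and 4.99 in C1MV, 3.46, 4.42, 3.63 and 2.41 in C1MDT, 0.516, 0.568, 4.3 and 5.85 in C1HV and 7.48, 4.3, 8.79 and 5.79 in C1HDT. Every induced library was below every C1T library, by -1.94 (SE 0.34), -1.85 (SE 0.32), -2.16 (SE 0.36) and -0.92 (SE 0.29, adjusted p = 0.0076). The 3′ end of Hoxa7 lies within the antisense gene Hoxaas3, whose own mean was 0.865 CPM or less in each group. Unless strand was used in counting, reads over both genes cannot be told apart. Such reads may then be among the ambiguous reads, which were left out, so that Hoxa7 would be undercounted.

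**Figure D5:**
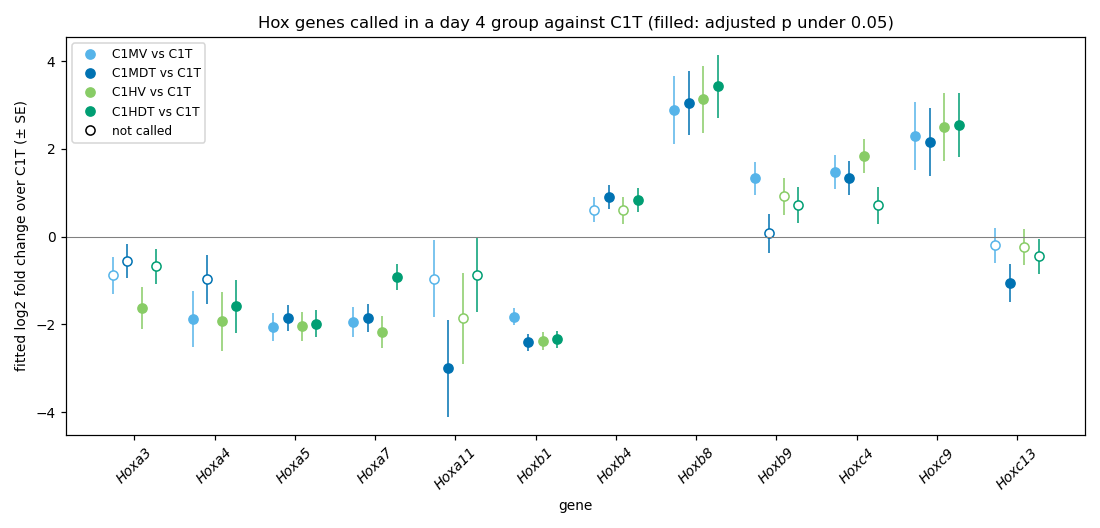
Fitted log2 fold change (± SE) over C1T of 12 Hox genes called in at least 1 of the 4 induced day 4 groups, filled where called. Hoxa5, Hoxa7 and Hoxb1 lie below 0 and Hoxb8 and Hoxc9 above 0 in all 4.

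Hoxb8 stood at 0.959, 0.416, 0 and 0 CPM in C1T, at the floor, and at 1.61, 4.49, 1.45 and 5.7 in C1MV, 1.73, 3.69, 3.35 and 4.47 in C1MDT, 2.58, 3.97, 1.72 and 7.15 in C1HV and 4.76, 1.91, 5.03 and 5.79 in C1HDT. These were at least 2.18, 2.18, 2.54 and 2.88 times the C1T level, with adjusted p from 0.0015 to 3.0e-05 and no overlap of libraries. Hoxc9, also at the floor in C1T, was at least 1.31-fold higher in C1MV, 1.27-fold in C1MDT, 1.44-fold in C1HV and 1.65-fold in C1HDT, with means of 1.93 to 2.504 CPM and adjusted p from 0.021 to 0.0032. The libraries of C1MDT and C1HV overlapped with those of C1T, and without C1T replicates 1 or 2, C1MV replicate 1 or C1HV replicate 3 a call of Hoxc9 was lost (adjusted p up to 0.0945). Both genes stood at few reads in each day 4 library.

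Other members differed from C1T in some of the induced groups. Hoxc4 was higher in C1MV (7.66, 4.49, 8.36 and 5.7 CPM), C1MDT (6.34, 6.26, 6.42 and 5.16) and C1HV (9.3, 9.65, 6.02 and 9.75), with log2 fold changes of 1.49 (SE 0.39), 1.35 (SE 0.39) and 1.84 (SE 0.38), and stood at 5.1, 4.3, 4.61 and 1.7 in C1HDT, where it was not called. Hoxb4, known for expanding blood stem cells, was higher in C1MDT (0.90, SE 0.27) and C1HDT (0.84, SE 0.28, lost without C1T replicates 3 or 4, adjusted p up to 0.083), at 11.0 ± 2.75 and 10.8 ± 1.62 CPM against 5.71 ± 3.46. Hoxb9 was higher in C1MV (1.33, SE 0.38, adjusted p = 0.0033, or 0.051 without C1MV replicate 3), at 6.62 ± 2.83 against 2.38 ± 1.73 CPM.

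Hoxa4 was lower in C1MV, C1HV and C1HDT at means of 0.847 to 1.27 CPM against 3.78 ± 2.36, and each of these calls was lost without C1T replicates 1 or 4, and also without C1MV replicates 1 or 3, C1HV replicate 4 or C1HDT replicates 1, 3 or 4 in turn (adjusted p up to 0.16). Hoxa3 was lower in C1HV at 0.516, 0, 2.58 and 5.85 CPM against 8.15, 10.4, 3.34 and 3.91 (adjusted p = 0.0060, or 0.078 without C1T replicate 2). Hoxc13 was lower in C1MDT, at 2.09 ± 1.07 against 4.20 ± 1.32 CPM (adjusted p = 0.044), and this call was lost with library size only, with no filter on low counts, with the replicate block, in a fit of these groups alone and without C1T replicates 1, 3 or 4 or C1MDT replicates 2 or 3 (up to 0.16). Hoxa11 was at the floor in C1MDT and at 1.06 ± 0.889 CPM in C1T, too low for a fold (adjusted p = 0.026, lost without C1T replicates 2 or 3 or C1MDT replicates 3 or 4, up to 0.10). The remaining 21 tested members, Hoxb2 and 12 of the posterior genes among them, were called in none of the 4.

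Keeping the inducers during the 4 days was compared with withdrawing them. In C1MDT vs C1MV Hoxb9 alone was called, lower with the inducers at 0.577, 2.58, 3.63 and 3.1 CPM against 2.82, 6.36, 9.45 and 7.84 (log2 fold change -1.25, SE 0.35, adjusted p = 0.0067), where 12.6% of all genes were called (6.64% up and 5.95% down). The libraries overlapped, and without C1MV replicate 3 the call was lost (0.099). The count was 2 without C1MV replicates 1 or 2 and 3 without C1MDT replicate 4. In C1HDT vs C1HV Hoxa7 was higher (1.24, SE 0.39, adjusted p = 0.017) and Hoxc4 lower (-1.13, SE 0.33, adjusted p = 0.0077) with the inducers, against a background of 16% (9.1% up and 6.88% down). The Hoxa7 call was lost without C1HV replicates 1 or 2 or C1HDT replicate 3 (up to 0.13) and the Hoxc4 call without C1HDT replicate 4 (0.077), which left 1 call in each case (1 to 3 over all libraries left out in turn). The difference between the 2 effects of keeping the inducers was tested as an interaction, for which no member was called by edgeR or DESeq2 (3 had an unadjusted p under 0.05 in edgeR). Of all genes 0% were called by edgeR and 20 genes by DESeq2.

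No member was called between the sorted fractions at day 4. C1HV vs C1MV and C1HDT vs C1MDT gave no call by edgeR or DESeq2, with 2 and 3 members at an unadjusted p under 0.05, where 0.00654% and 0% of all genes were called by edgeR. Hoxb1 stood at 16.1 ± 3.02 and 25.97 ± 12.3 CPM in C1HV and C1MV, and at 16.8 ± 4.25 and 16.4 ± 4.02 in C1HDT and C1MDT.

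Noncoding genes inside the clusters and the nearest coding genes outside them gave context to these values. Hotairm1, an antisense RNA of cluster a, rose from 1.99 ± 1.17 CPM in C1 to 7.28 ± 1.02 in C1T (log2 fold change 1.86, SE 0.43, adjusted p = 0.00012) and was lower than C1T in C1MV, C1MDT, C1HV and C1HDT, at 1.58 to 3.20 CPM and by -1.26, -1.20, -2.27 and -1.27. For C1MDT this call was lost without C1MDT replicate 3 (0.059). Hoxb3os stood at 0.640 ± 0.474 CPM in C1, at the floor, 2.604 ± 0.799 in C1T and 4.34 to 7.81 in the induced groups, and was higher than C1T in C1MV (1.56, SE 0.40) and C1MDT (1.28, SE 0.40). Its call in C1T vs C1 (at least 1.75-fold higher) was lost without C1 replicate 1 (0.058). It overlaps the 3′ ends of Hoxb2 and Hoxb3 on the other strand, so reads of these pairs have the same limit as Hoxa7 and Hoxaas3. Of the 6, 4, 1 and 6 other genes inside clusters a to d, 3, 2, 0 and 0 passed the filter, and Hotair was not counted. Outside the clusters, Skap2 beside cluster a was lower in the 4 induced groups than in C1T, by means of 48.3 to 50.7 against 71.5 ± 3.56 CPM. Ttll6 beside Hoxb13 fell from 26.7 ± 6.74 CPM in C1 to 4.602 ± 0.641 in C1T, and Evx1 and Evx2, beside Hoxa13 and Hoxd13, did not pass the filter.

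Lists of Hox regulators and partners were read in the same comparisons. Of 9 genes of the CDX and posterior list 4 were tested, and in C1T vs C1 only Cdx1 was called, from 3.58 CPM (1.44 to 7.36) to 0 in all 4 C1T libraries, at least 2.36-fold lower. None rose. Of 18 retinoid pathway genes 17 were tested, with 7 up and 3 down in C1T vs C1 (median log2 fold change 0.63), where 49.3% of all genes were called (24.4% up and 24.9% down). Against C1T 2, 3, 1 and 4 were up and 4, 7, 6 and 6 down in C1MV, C1MDT, C1HV and C1HDT, where 30.2%, 33.4%, 28% and 33.5% of all genes were called. Rxrg, a retinoid X receptor, had no count in C1 and stood at 9.11 ± 2.63 CPM in C1T, at least 6.12-fold higher, and at 1.78 to 3.45 in the induced groups, where it was called lower in all 4. Crabp2, a carrier of retinoic acid, went from the floor to 21.6 ± 5.19 CPM, at least 14.5-fold higher, and Aldh1a3, which makes retinoic acid, from 28.6 ± 0.817 to the floor, at least 18.85-fold lower.

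Among 9 TALE cofactors, the homeodomain partners of HOX proteins, all were tested, with 3 up and 2 down in C1T vs C1, near the 49.3% called of all genes. Meis1 stood at 1.57 ± 1.21 CPM in C1T and was higher in C1HDT at 5.95 ± 1.28 (1.79, SE 0.46), and Pknox2 fell from 19.5 ± 1.59 to 6.14 ± 3.22. The hindbrain regulators, 5 of 6 tested, held Irx3, which rose from 3.82 ± 1.62 to 83.0 ± 7.19 CPM in C1T (4.43, SE 0.21), and Fgf3, higher than C1T in all 4 induced groups, at 16.5 to 27.45 against 6.71 ± 2.18 CPM. Of 23 other homeobox genes of the same class 12 were tested, 3 up and 2 down in C1T vs C1 against the same background, and Gbx2, a gene of the midbrain-hindbrain border, went from 1.16 ± 1.01 to 25.9 ± 4.35 CPM and was lower in all 4 induced groups (6.70 to 10.6). Meox1 in C1T and Msx2 in C1HDT were called at means of 1.19 and 1.45 CPM, too low for a fold, and the calls were lost in DESeq2 for Meox1 (0.26) and without C1T replicates 2, 3 or 4 or C1HDT replicates 2 or 3 for Msx2 (up to 0.10).

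Chromatin regulators were all tested, and their counts in C1T vs C1 are to be read against 49.3% of all genes called, 24.4% up and 24.9% down. Of the 12 PRC2 genes 0 rose and 6 fell in C1T vs C1, by at most -1.45 (Mtf2, SE 0.07), where Aebp2 fell by 1.06 on the log2 scale. The share called is near the background with both directions pooled, though all these calls were falls. No test of the list was run. Of the 19 PRC1 genes 8 rose and 4 fell, with Cbx8 going from 7.65 to 1.98 CPM and Yaf2 from 9.88 to 27.7. Of the 12 trithorax or COMPASS genes 2 rose and 6 fell, among them Kmt2c (-1.21, SE 0.09) and Kmt2b (-0.97, SE 0.13), and Kmt2a was lower in C1HDT than in C1T (-0.98, SE 0.09). Against C1T, the PRC2 counts were 1, 3, 2 and 2 higher and 2, 6, 1 and 5 lower in C1MV, C1MDT, C1HV and C1HDT (30.2%, 33.4%, 28% and 33.5% of all genes called), with Phf19 lower in C1MDT (-1.14, SE 0.44, lost in DESeq2 and without C1T replicates 3 or 4 or C1MDT replicates 2 or 3, up to 0.22). Fgf8, of the posterior list, was higher in C1HV than in C1T at 1.76 CPM against the floor, at least 1.16-fold (adjusted p = 0.042, lost in DESeq2, with no filter and without C1T replicates 2 or 4 or C1HV replicates 1, 3 or 4, up to 0.14).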

How the data were processed

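RNA of 32 libraries (8 groups of 4 biological replicates) was sequenced from 3′ ends with QuantSeq, without molecular identifiers. The authors trimmed reads with bbduk (bbmap 37.31), aligned them with STAR to mm10 with Ensembl 93 annotation and deposited htseq-count counts of uniquely aligned reads per gene, not normalized. The strand setting is not given in the sources used here. Reads in no gene (10.06 to 23.06% of unique reads) and ambiguous reads (0.480 to 0.622%) were left out. Gene names and positions came from GENCODE vM21 and promoters from RefSeq (GRCm38.p6).

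Counts were fitted in edgeR 4.0.16 (R 4.3.3) with TMM scaling and 1 quasi-likelihood model of all 8 groups, for the 15280 genes that reached 1 CPM in 4 or more libraries. Calls had a Benjamini-Hochberg adjusted p under 0.05 over all these genes. A group was at the floor when no library exceeded 3 counts, and folds against it were bounds. Alternatives were DESeq2 1.42.0, other scalings, filters and fits, a replicate block and leaving out each library. Fitting was tested on simulated data. The numbers did not pair the samples (mean correlation of same-numbered deviations -0.0016). The 39 members were taken by the symbol rule. By rule, the 20 tested members with the highest mean CPM were to be described per library. Each other list gave the called genes with the 3 largest absolute log2 fold changes in C1T vs C1 or an induced group vs C1T. The genes inside and next to the clusters were described beside these. Hoxa10, Hoxb7, Hoxc10 and Hoxd13 fall under the rule for members but are given by group means or by their calls. Hoxa4, Hoxa11, Hoxb5 and Hoxc12 fall outside it and were chosen after their values were seen. Members and lists were chosen with earlier results of these data known. Results for some genes of the clusters and lists are not reported here.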

Additional observations from a re-analysis of the deposited data

Results flagged for a closer look

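The change from day 0 to day 4 was compared between each induced culture and C1T by an interaction term of the edgeR fit, where a positive value means a larger rise or smaller fall than from C1 to C1T. Of the calls in members, 23 are given here, and members were called in 6 tests for C1MV (22.5% of all genes), 6 for C1MDT (24.4%), 9 for C1HV (21.9%) and 6 for C1HDT (25.2%), and all 4 sets share C1 and C1T.

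Hoxb1 differed by -3.83 on the log2 scale for C1MV (adjusted p = 0.022), -4.42 for C1MDT (0.0069), -5.41 for C1HV (3.8e-05) and -5.36 for C1HDT (3.5e-05), sizes that depend on the prior count since C1 was at the floor. The call was lost for C1MV in a fit of the groups compared alone and without C1 replicates 1 or 3 or C1M replicates 1 or 3 (adjusted p up to 0.32), and for C1MDT without C1M replicate 3 (0.21). Hoxa5 differed by -2.28, -2.08, -2.34 and -2.28 in the same order, with adjusted p of at most 0.00016.

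Hoxa7 differed by -1.54 for C1MV, -1.44 for C1MDT and -2.04 for C1HV, and Hoxc4 by 1.47, 1.33 and 1.85, all with adjusted p of at most 0.016. Hoxb9 differed by 1.53 for C1MV (0.0044) and Hoxb5 by -4.60 for C1MDT (0.0067), with C1 and C1MDT at the floor. Hoxc9 differed by 2.18 for C1HV (0.047) and 2.22 for C1HDT (0.030), Hoxa9 by -2.19 (0.046) and -2.62 (0.012), Hoxb7 by 2.28 (0.031) and 2.20 (0.030), and Hoxa3 by -1.95 for C1HV (0.022). Over 23 alternatives the C1HV calls of Hoxc9 and Hoxa9 were lost in 12 each, the C1HDT calls in 4 and 1, both Hoxb7 calls in 4 each and the Hoxa3 call in 5. Without 1 library these last values rose to adjusted p of up to 0.19 and 0.11 for Hoxc9 (C1HV replicate 3 and C1T replicate 2 left out), 0.37 and 0.20 for Hoxa9 (C1T replicate 1), 0.17 and 0.18 for Hoxb7 (C1 replicate 4) and 0.10 for Hoxa3 (C1T replicate 2).

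Of 152 groups of 4 libraries tested, 12 held a library far from the other 3. The cutoff gives about 5% for normally distributed values, a rate that low counts need not follow. A group counted in 1 library alone, as for Hoxb1 and Hoxb8 in C1, is flagged whatever that count. High ones were Hoxa3 in C1MDT replicate 1 (7.50 CPM), Hoxa9 in C1M replicate 4 (24.3), Hoxa10 in C1MV replicate 2 (4.12), Hoxb1 in C1 replicate 4 (0.479, 1 count) and C1MV replicate 4 (44.2), Hoxb2 in C1HDT replicate 4 (4.765), Hoxb8 in C1 replicate 4 (0.958), Hoxc4 in C1T replicate 1 (3.36) and Hoxd11 in C1H replicate 4 (11.3). Low ones were Hoxa5 in C1MV replicate 1 (2.02 CPM) and Hoxc4 in C1MDT replicate 4 (5.16) and C1HV replicate 3 (6.02).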

How the results depend on the processing

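No direction was reversed by the alternatives run. Of 231 single-gene calls, 61 were lost in at least 1 alternative and 170 in none that tested them. Counts of Hox calls stayed within 1.5 times under DESeq2, the other size factors and library size only. Asking for at least 1 CPM in all libraries left 5 Hox genes to test, and the count became 0 in C1M vs C1, 0 in C1H vs C1, 5 in C1T vs C1, 3 in C1MV vs C1M, 4 in C1MDT vs C1M, 3 in C1HV vs C1H, 5 in C1HDT vs C1H, 2, 5, 2 and 3 in C1MV, C1MDT, C1HV and C1HDT vs C1T, 0 in C1MDT vs C1MV, 1 in C1HDT vs C1HV, and 3, 3, 3 and 2 in the interactions of C1MV, C1MDT, C1HV and C1HDT. A fit of the groups compared alone gave 3 in C1H vs C1, where fewer Hox genes (27) were tested. For C1MDT vs C1MV, no filter gave 2 and the likelihood ratio test 3, and the cause was not tested. With 1 library left out, counts ran from 2 to 5 in C1H vs C1, 1 to 3 in C1MDT vs C1MV, 1 to 3 in C1HDT vs C1HV and 4 to 9 in the C1HV interaction (5 without C1 replicate 4 or C1H replicate 4, 4 without C1HV replicate 2). Library size only moved the median of all genes by -0.07 to 0.08 on the log2 scale.

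Samples with the same replicate number did not deviate together (mean correlation -0.0016, against 0.00055 for other numbers). With a replicate block the counts were 2 in C1M vs C1, 22 in C1T vs C1 and 9 in C1MDT vs C1T, and 4 calls were lost: Hoxb5 in C1M vs C1 (adjusted p = 0.057), Hoxc5 in C1MDT vs C1M (0.051), Hoxb8 in C1HV vs C1H (0.052) and Hoxc13 in C1MDT vs C1T (0.052). Most Hox genes stood at a few reads a library, which limits the precision of their values.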
